A study of Mus musculus with 24 samples.

Results

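The genes of oxidative phosphorylation were followed at their promoters in H3K9ac peak lists from 4T1 spheroids. A gene was a member when it is protein-coding, lies on a nuclear chromosome (1 to 19 or X) in GENCODE vM21 and has a symbol that starts with Ndufa, Ndufb, Ndufc, Ndufs, Ndufv, Sdha to Sdhd, Uqcr, Cox4, Cox5, Cox6, Cox7, Cox8 or Atp5. The rule took 98 of 21670 protein-coding genes. Of these, 84 were counted as subunit genes by symbol: 38 for complex I, 4 for complex II, 8 for complex III, 18 for complex IV and 16 for complex V. The prefixes also caught 12 assembly factors (Ndufaf and Sdhaf), Atp5s, which is not a subunit, and a second gene model named Atp5o, and these were kept apart. Ndufa4 and Ndufa4l2 carry complex I symbols, although the protein of Ndufa4 is part of complex IV. Cox7a2l was counted with complex IV by its symbol, although its protein takes part in joining complexes into supercomplexes.

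Oxidative phosphorylation takes place in the inner mitochondrial membrane. Complex I accepts electrons from NADH and complex II accepts them from succinate, complex III passes them to cytochrome c, and complex IV hands them to oxygen. The proton gradient that builds up drives complex V, the ATP synthase. Fatty acid oxidation, which CPT1a feeds by importing long-chain acyl groups into mitochondria, delivers electrons to this chain and acetyl-CoA to the cell. Most subunits are encoded in the nucleus, and many of their promoters are known to be bound by NRF1, GABP (an ETS factor) and YY1. H3K9ac, the acetylation of lysine 9 of histone H3, marks active promoters, and KAT2a is one of the enzymes that deposit it.

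4T1 is a mouse mammary carcinoma line. All groups were spheroids collected on day 5 from stable, puromycin-selected lines that carry a doxycycline-inducible Cas9, and each group had 3 libraries: scramble (a control guide, which the study's methods describe as directed at EGFP), CPT1a knockout, CPT1a knockout with 5 mM acetate, and KAT2a knockout. The labels give 75 µM palmitate for scramble, CPT1a knockout and KAT2a knockout and do not say whether the acetate group also received it. A legend in the paper gives palmitate for CPT1a-inhibited spheroids whether acetate was added or not. The study designed guides to 2 exons per gene, and which of these a library carries is not stated in the labels. Since guides in coding exons need not change H3K9ac at the promoter of Cpt1a or Kat2a, the peak lists do not check the genotype. Nothing in the labels says that the 3 libraries of a group came from separate cultures, so the p-values measure the spread between these libraries, which may be technical.

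The 12 lists held 16201 to 34330 peaks on the chromosomes used. Scramble stood apart in the number of peaks and in their enrichment: its libraries had 29153 to 34330 peaks with a median fold enrichment of 5.59 to 7.09, against 16201 to 24594 peaks with a median of 8.72 to 13.2 in the other 9. The covered length overlapped (34.47 to 46.22 Mb in scramble, 19.54 to 35.42 Mb in the others), as did the number of genes with a promoter peak (10985 to 11219 and 10801 to 11483). Read depth is not given in the sources used here. Of 8 epithelial markers, 7 had a promoter peak in all 12 libraries, Epcam, Cdh1, Krt8 and Krt18 among them, and Krt14 had one in 3. Of 10 markers of immune cells, endothelium, fibroblasts, adipocytes and hepatocytes, 8 had none in any library, Pdgfra had one in all 12 and Col1a1 had one in 4. Over promoters, libraries of the same group correlated with a Spearman rho of 0.663 to 0.837 and libraries of different groups with 0.559 to 0.833.

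The promoters of 6 subunits are shown. Those of Ndufs3, Sdha, Sdhd, Cox5a and Atp5b were called in a comparison described further on, and that of Sdhb held the most kinds of motif among the catalytic and other principal subunits in the 300-base window. The bases just before the RefSeq start are given 5′ to 3′ on the gene's strand, in GRCm38.p6 coordinates: Ndufs3 at chr2:90904722-90904971 (minus strand), Sdha at chr13:74350241-74350490 (minus strand), Sdhb at chr4:140961021-140961270 (plus strand), Sdhd at chr9:50603850-50604099 (minus strand), Cox5a at chr9:57520982-57521231 (plus strand) and Atp5b at chr10:128083057-128083306 (plus strand). Capitals mark the NRF1 core GCGCATGC, the ETS/GABP core CCGGAAG and the SP1 GC box GGGCGG, on either strand.
Ndufs3: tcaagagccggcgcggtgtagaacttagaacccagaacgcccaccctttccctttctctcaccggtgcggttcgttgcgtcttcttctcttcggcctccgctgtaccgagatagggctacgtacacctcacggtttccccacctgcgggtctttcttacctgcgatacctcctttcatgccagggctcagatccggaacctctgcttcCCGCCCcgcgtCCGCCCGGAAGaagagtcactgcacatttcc
Sdha: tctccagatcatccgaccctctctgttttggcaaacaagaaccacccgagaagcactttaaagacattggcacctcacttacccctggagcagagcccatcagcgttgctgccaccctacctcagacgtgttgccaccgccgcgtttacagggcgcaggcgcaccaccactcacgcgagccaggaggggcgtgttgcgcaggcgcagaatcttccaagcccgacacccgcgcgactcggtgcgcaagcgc
Sdhb: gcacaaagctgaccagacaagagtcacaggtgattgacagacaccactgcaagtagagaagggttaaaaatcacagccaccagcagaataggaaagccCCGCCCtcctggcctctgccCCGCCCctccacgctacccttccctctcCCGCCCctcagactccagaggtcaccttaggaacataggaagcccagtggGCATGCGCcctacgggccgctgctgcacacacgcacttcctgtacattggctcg
Sdhd: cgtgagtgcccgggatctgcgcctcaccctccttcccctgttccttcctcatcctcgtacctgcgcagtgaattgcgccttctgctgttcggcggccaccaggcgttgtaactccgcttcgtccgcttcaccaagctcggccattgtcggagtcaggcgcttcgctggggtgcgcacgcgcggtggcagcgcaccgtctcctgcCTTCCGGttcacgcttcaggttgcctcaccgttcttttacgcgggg
Cox5a: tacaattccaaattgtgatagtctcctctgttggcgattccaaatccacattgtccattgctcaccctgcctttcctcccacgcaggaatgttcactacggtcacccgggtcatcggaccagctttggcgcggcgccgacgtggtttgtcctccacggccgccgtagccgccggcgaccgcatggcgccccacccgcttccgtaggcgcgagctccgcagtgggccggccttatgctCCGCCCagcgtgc
Atp5b: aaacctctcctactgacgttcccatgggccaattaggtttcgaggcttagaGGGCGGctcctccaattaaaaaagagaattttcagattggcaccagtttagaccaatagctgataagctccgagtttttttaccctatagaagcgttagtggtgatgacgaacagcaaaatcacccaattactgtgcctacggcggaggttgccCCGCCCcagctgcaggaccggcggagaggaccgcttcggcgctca
Sdhb, which encodes the iron-sulfur subunit of complex II, held an NRF1 core that begins 54 bases before the start and 3 GC boxes. Ndufs3, a core subunit of complex I, held an ETS/GABP core 27 bases before the start, which overlaps a GC box by 2 letters. The only marked letters of Sdhd, a membrane anchor of complex II, were an ETS/GABP core 46 bases before the start. Cox5a held a GC box 13 bases before the start, and Atp5b held 2, at 199 and 45 bases before it. None of the searched letters stood in the window of Sdha, the flavoprotein of complex II. The RefSeq start lies 106 bp downstream of the GENCODE start nearest the summit at Ndufs3, and 68 bp downstream at Sdhb. The ETS/GABP core of Ndufs3 and the NRF1 core of Sdhb thus lie downstream of that GENCODE start.

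Promoter windows of 300 bases around a RefSeq start were matched for 77 of the 98 genes. Among the 73 with an H3K9ac peak, the NRF1 core was present in 12 (16.4%), against 6.33% of the 8141 matched promoters of all genes with a peak in every library. The YY1 core AAGATGGCG was present in 7 (9.59%, against 4.04%) and the ETS/GABP core in 19 (26.0%, against 22.0%). The GC box went the other way, with 34 of 73 (46.6%) against 71.2%. NRF1 and ETS/GABP cores stood together in 5 promoters (6.85%, against 1.4%). The NRF1 core occurred 3 times at Ndufaf4, a complex I assembly factor, and 2 times each at Ndufa11, Ndufaf5, Uqcrc1, Cox6a1, Atp5g2 and Atp5k. These are matches of letters, given as a description with no test, and they do not show binding.

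The call of H3K9ac at these promoters did not vary between libraries. A peak lay within 1 kb of a transcription start site in all 12 libraries for 89 of the 98 genes and in no library for the other 9. Over all protein-coding genes, 49.1% had a promoter peak in all 12 libraries and 45.8% had one in none. Complex II (4 of 4), complex III (8 of 8), complex V (16 of 16) and the assembly factors (12 of 12) were fully marked, as were 37 of 38 complex I genes, while 11 of 18 complex IV genes were. No gene entered the comparisons through a single group.

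The genes without a peak were 8 alternative isoforms and the second Atp5o model. Cox6a2, Cox7a1 and Cox8b, the muscle forms of complex IV subunits, had no peak in any library, while their widely expressed partners Cox6a1, Cox7a2 and Cox8a had one in 12 of 12. The same held for Cox4i2 beside Cox4i1, Cox6b2 beside Cox6b1, Cox7b2 beside Cox7b, Cox8c beside Cox8a and Ndufa4l2 beside Ndufa4. The nearest peak to the start of Ndufa4l2 lay 1439 to 2120 bp away, and that of Cox7b2 lay 617222 bp away or farther. The promoters of these 8 isoforms had a CpG observed-over-expected ratio of 0.199 to 0.377. The partners Cox4i1, Cox6a1, Cox6b1, Cox7a2, Cox8a and Ndufa4 had 0.522 to 0.993, and Cox7b had 0.383, next to the range of the unmarked isoforms.

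The strength of a promoter was expressed as a percentile: the fold enrichment of its strongest peak was ranked within each library against the 10637 genes that carried such a peak in every library, from 0 for the weakest to 100 for the strongest. The percentile compares genes within a library and does not measure the total amount of H3K9ac. The 89 genes had a median of 67.1 for the mean percentile over 12 libraries, and 60 of them (67.4%) stood above 50. Over all 10637 genes the median was 51.8 and 52.3% stood above 50.

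**Figure D1:**
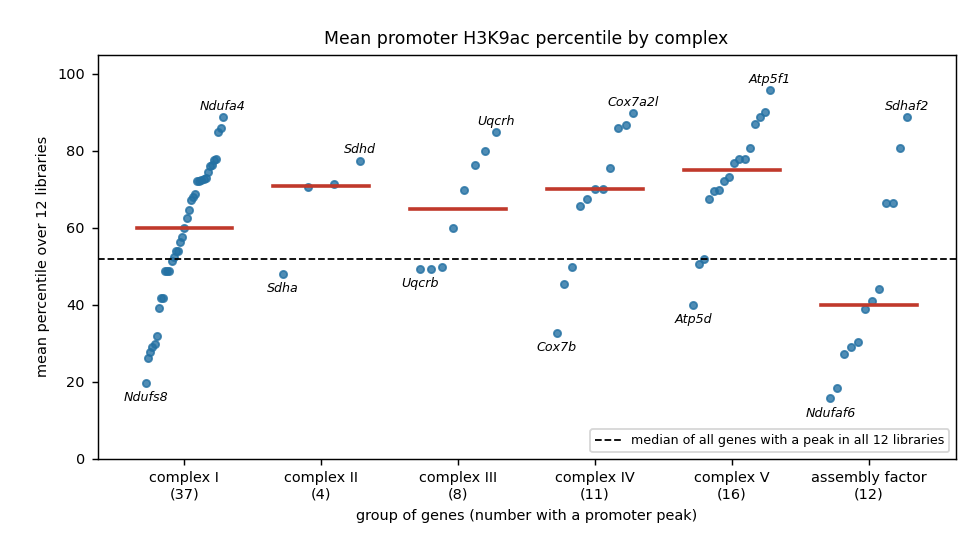
Mean percentile of promoter H3K9ac over 12 libraries (y axis) for each gene with a promoter peak, grouped by complex (x axis). Each point is a gene, red bars are medians of a group and the dashed line is the median of all genes with a peak in every library (51.8). Complex V has the highest median (75.1) and assembly factors have the lowest (39.9).

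The order of the complexes by median was complex V (75.1), complex II (70.9), complex IV (70.0), complex III (65.0), complex I (59.8) and assembly factors (39.9). In complex V, 15 of 16 genes stood above 50, with Atp5f1, the b subunit of the peripheral stalk, at 95.8 and Atp5d at 39.9 as the extremes. Complex I spread from 88.8 for Ndufa4 to 19.6 for the core subunit Ndufs8. Complex II ran from Sdhd at 77.4 to Sdha at 48.1, and complex III from Uqcrh, the hinge protein, at 84.8 to Uqcrb at 49.2. Complex IV ran from Cox7a2l, which takes part in joining complexes into supercomplexes, at 89.8 to Cox7b at 32.6. The assembly factors ran from Sdhaf2, which serves the flavinylation of Sdha, at 88.7 to Ndufaf6 at 15.6. The ranges overlapped between all groups, and the groups are described here without a test.

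**Figure D2:**
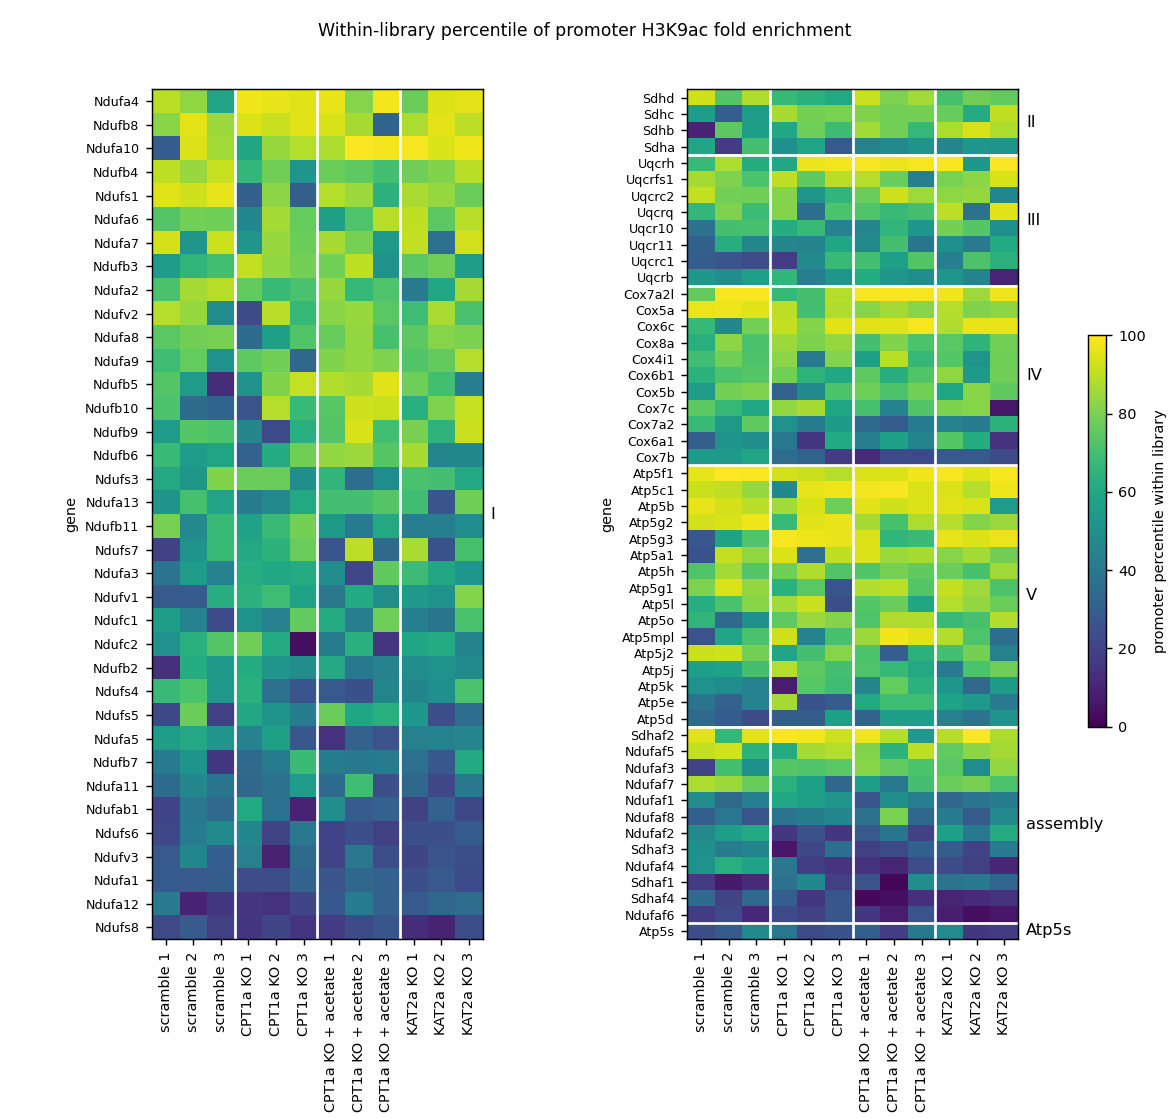
Percentile of promoter H3K9ac within each library (colour, 0 to 100) for 88 of the 89 genes with a promoter peak, with genes in rows by complex and the 12 libraries in columns (KO, knockout). White lines part the groups of libraries and the complexes. Atp5f1 stays near the top in every library (88.7 to 99.9) and Ndufs8 near the bottom (10.1 to 28.7), while Ndufs1 ranges from 30.1 to 96.4.

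The principal subunits covered most of the scale. Among the core subunits of complex I, Ndufs8 lay between 10.1 and 28.7 in all 12 libraries, while Ndufv2, an iron-sulfur subunit of the NADH-oxidising module, lay between 22.8 and 89.1. In complex III, the core protein gene Uqcrc2 lay between 46.0 and 92.8 and Uqcrfs1, the Rieske iron-sulfur protein, between 43.1 and 94.0. The core protein gene Uqcrc1 had a scramble mean of 26.4 ± 3.04 and means of 44.5 ± 25.1 after CPT1a loss, 66.6 ± 8.68 when acetate was added and 59.9 ± 15.0 after KAT2a loss (each SD over 3 libraries), and it was not called in any comparison. In complex V, Atp5c1 (the gamma subunit, mean 90.04) and Atp5b (the catalytic beta subunit, mean 88.8) stood high. Single libraries could depart widely, as at Atp5a1 (the catalytic alpha subunit), with 25.1 in scramble replicate 1 and 91.0 and 83.4 in the other two. The median SD within a group was 12.1 percentile points for the 89 genes, and 10.5 over all genes.

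The first comparison asked which promoters changed place when CPT1a was lost. In CPT1a knockout, Atp5g3 and Sdhc rose in rank and Ndufs1, Cox5a, Atp5f1, Ndufaf2, Ndufaf4 and Ndufaf7 fell (limma on normal scores of the percentile, Benjamini-Hochberg adjusted p below 0.05 over 10637 genes). That is 2 of 89 genes higher (2.25%), where 4.72% of all genes were called higher, and 6 of 89 lower (6.74%), where 5.17% of all genes were. Both shares lay near or under those of all genes. With any 1 of the 6 libraries left out the higher count was 1. The lower count was 0 without scramble replicate 3 or CPT1a knockout replicate 3, 1 without scramble replicate 2, 3 without scramble replicate 1 or CPT1a knockout replicate 2, and 4 without CPT1a knockout replicate 1. Such counts can include genes that were not called in the fit to all libraries. The median change of the 89 genes was -1.72 percentile points, with 42 up and 47 down, and the median of all genes was 0.183, with 5372 up and 5265 down.

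Atp5g3 encodes a form of the c subunit, which makes up the proton-carrying ring of the ATP synthase. Its percentile was 27.3, 58.1 and 72.3 in the scramble libraries and 99.1, 97.4 and 96.6 in CPT1a knockout. The groups did not overlap, and the difference was 45.1 points (1.97 ± 0.36 normal-score units, SE, adjusted p = 0.00648). The call was kept without each library in turn (adjusted p 0.0153 to 0.0298). No other rank call of an oxidative phosphorylation gene was kept in all of these fits.

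Ndufs1, the largest core subunit of complex I, stood at 95.2, 92.6 and 96.4 in scramble and at 30.6, 82.8 and 30.1 in CPT1a knockout. The CPT1a knockout libraries were all lower, with replicate 2 close to scramble. The difference was -46.9 points (adjusted p = 0.0154), and the call was lost without scramble replicate 3 or without CPT1a knockout replicate 3 (adjusted p up to 0.0565). The strongest peak at Ndufs1 also covered the start of Eef1b2, which lies 297 bp away on the other strand, in all 12 libraries, so the share of each start in the signal cannot be told apart.

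Sdhc, a membrane anchor of complex II, rose from 55.4, 30.4 and 55.3 in scramble to 87.1, 79.2 and 79.9 in CPT1a knockout (35 points, adjusted p = 0.0412). Cox5a, a complex IV subunit, stood at 97.2, 97.6 and 95.2 in scramble and at 90.2, 70.5 and 87.9 in CPT1a knockout (-13.8 points, adjusted p = 0.0492). Atp5f1 stood at 96.4, 99.9 and 99.4 against 93.2, 91.8 and 88.7, a shift of -7.32 points within the top of the ranking (adjusted p = 0.0425). In none of the 3 did the groups overlap. The Sdhc call was lost whichever of the 6 libraries was left out (adjusted p 0.0685 to 0.131). The Cox5a call was kept only without CPT1a knockout replicate 1, and the Atp5f1 call only without scramble replicate 1 (adjusted p up to 0.149 and 0.142 in the other fits). With a promoter window of 500 bp the adjusted p of Atp5f1 was 0.824, and that of Cox5a was 0.0505. On the plain percentile they were 0.279 and 0.15, and with the trend of rank on GC content removed 0.0806 and 0.0879.

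The 3 assembly factors of complex I that fell were Ndufaf2, Ndufaf4 and Ndufaf7, of 12 assembly factors in all. Ndufaf2 stood at 46.9, 55.8 and 60.7 in scramble and at 16.1, 24.9 and 15.8 in CPT1a knockout (-35.5 points, adjusted p = 0.0268). Ndufaf4 stood at 50.9, 63.1 and 58.0 against 39.8, 18.4 and 15.3 (-32.8 points, adjusted p = 0.0485). Ndufaf7, a methyltransferase, stood at 87.7, 84.8 and 76.9 against 64.1, 56.3 and 33.7 (-31.8 points, adjusted p = 0.0481). All 3 were lower in every knockout library than in any scramble library. Ndufaf2 kept its call only without CPT1a knockout replicate 2, and Ndufaf4 and Ndufaf7 kept theirs only without CPT1a knockout replicate 1 (adjusted p up to 0.0899, 0.136 and 0.149). With the GC trend removed the calls of Ndufaf4 and Ndufaf7 were lost (adjusted p = 0.283 and 0.243), and with a replicate block they were lost too. The peak at Ndufaf2 covered the start of Ercc8 in all 12 libraries, and that at Ndufaf7 the start of Cebpz in 11.

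**Figure D3:**
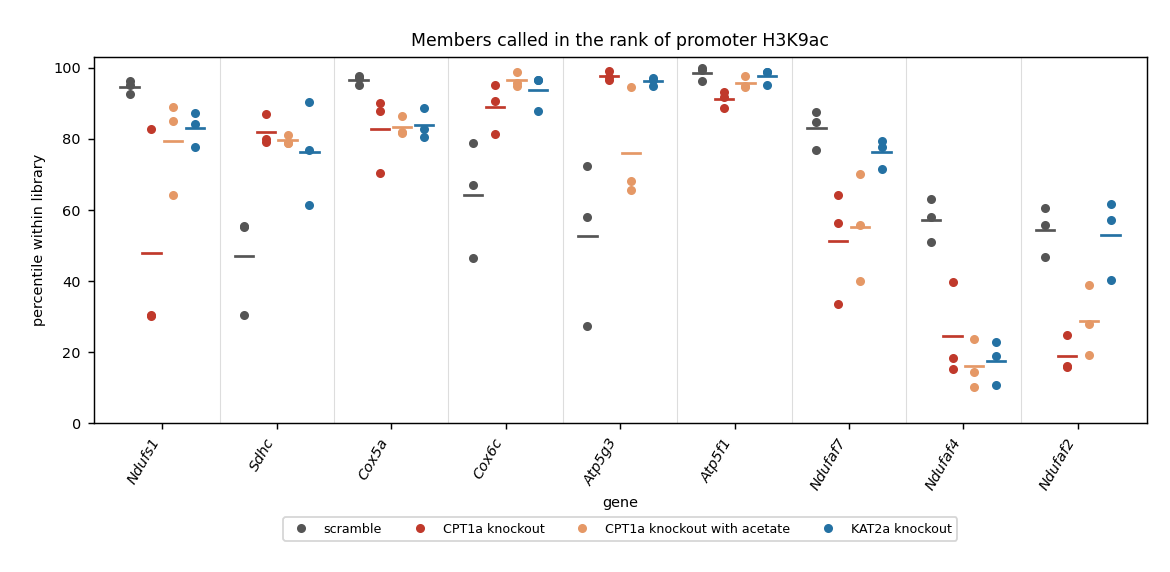
Percentile within the library (y axis) of the 9 genes called in rank in either knockout (x axis). Each point is a library, coloured by group, and short lines are group means. Atp5g3 is at 94.8 or above in the 6 CPT1a and KAT2a knockout libraries and at 72.3 or below in scramble.

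In KAT2a knockout, compared with the same scramble libraries, Atp5g3 and Cox6c rose and Ndufaf4 fell. These were 2 of 89 genes higher (2.25%, against 1.57% of all genes) and 1 of 89 lower (1.12%, against 2.07% of all genes). Atp5g3 stood at 96.5, 94.8 and 97.2 in KAT2a knockout, 43.6 points above scramble (adjusted p = 0.0239). Cox6c, a small subunit of complex IV, stood at 67.1, 46.4 and 79.0 in scramble and at 87.9, 96.6 and 96.5 in KAT2a knockout (29.5 points, adjusted p = 0.0476). Ndufaf4 stood at 22.9, 19 and 10.9 in KAT2a knockout against 50.9, 63.1 and 58.0 in scramble (-39.7 points, adjusted p = 0.038). The groups did not overlap at any of the 3. The calls of Cox6c and Ndufaf4 were lost whichever of the 6 libraries was left out (adjusted p up to 0.129 and 0.103), and that of Atp5g3 without scramble replicate 1 and without each KAT2a knockout library (up to 0.0877). The higher count was 2 without scramble replicate 2, of which 1 was a gene not called in the fit to all libraries. It was 1 without scramble replicate 3 and 0 without each of the other 4 libraries, and the lower count was 0 whichever was left out. On the plain percentile Cox6c missed the threshold (adjusted p = 0.0549), and with the GC trend removed Ndufaf4 did (0.102). Ndufaf4 missed it with a replicate block as well. Since both knockouts were set against the same 3 scramble libraries, a gene called in both rests on the same controls each time.

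Acetate was compared with CPT1a knockout alone, the comparison that asks whether acetate restores the marks. Under limma, 0 of 89 genes were called higher and 0 lower, as were 0% of all genes in each direction. At an unadjusted p under 0.05, 8 of the 89 genes were higher and 2 lower, against 439 and 540 of all 10637. The lowest adjusted p of an oxidative phosphorylation gene was 0.402, at Cox7a2l. It stood at 67.0, 70.7 and 88.7 in CPT1a knockout and at 98.5, 99.2 and 98.5 with acetate. Atp5g3 stood at 94.6, 65.7 and 68.2 with acetate and at 99.1, 97.4 and 96.6 without it (-21.5 points, adjusted p = 0.426). Ndufs1 stood at 88.9, 85.1 and 64.2 with acetate (31.6 points above CPT1a knockout, adjusted p = 0.513), where the groups overlapped. Sdhd stood at 91.5, 80.8 and 86.2 with acetate against 67.0, 63.9 and 60.9 in CPT1a knockout (22.2 points, adjusted p = 0.464). The median change of the 89 genes was 2.40 points, with 55 up and 34 down, and that of all genes was -0.498, with 5044 up and 5592 down. The changes of the 89 genes ran from -22.9 points (Ndufb8) to 35.1 (Ndufb9).

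The width of a promoter peak gave a second reading. The strongest peak of the median promoter was 2400 ± 418 bp wide in scramble, 1860 ± 363 after CPT1a loss, 2020 ± 290 when acetate was added and 2160 ± 321 after KAT2a loss (SD of 3 library medians). Per gene, the median width over all genes moved by -0.38 on the log2 scale in CPT1a knockout and by -0.16 in KAT2a knockout. Each width was therefore divided by the library's median over the 10637 promoters, and the changes given below are relative to that shift. The relative width of the 89 genes had a median of 1.10 ± 0.0436 in scramble, 0.934 ± 0.015 after CPT1a loss, 0.943 ± 0.041 when acetate was added and 0.957 ± 0.0312 after KAT2a loss (SD over 3 libraries). Oxidative phosphorylation promoters were thus wider than the median promoter in the 3 scramble libraries (1.05 or above) and narrower than it in the other 9 (0.901 to 0.986).

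Promoters also differed in how many peaks touched them, and this moved with the groups too. Over all genes, 47.1% ± 7.40 of promoters held more than 1 peak in scramble, against 18.7% ± 4.70, 27.0% ± 6.61 and 20.7% ± 7.52 in CPT1a knockout, acetate and KAT2a knockout. For the 89 genes these shares were 31.5% ± 12.1, 12.3% ± 6.26, 19.9% ± 6.21 and 13.8% ± 6.56 (SD, n = 3 each). The part of splitting and of the number of peaks per list in the changes of relative width was not tested.

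**Figure D4:**
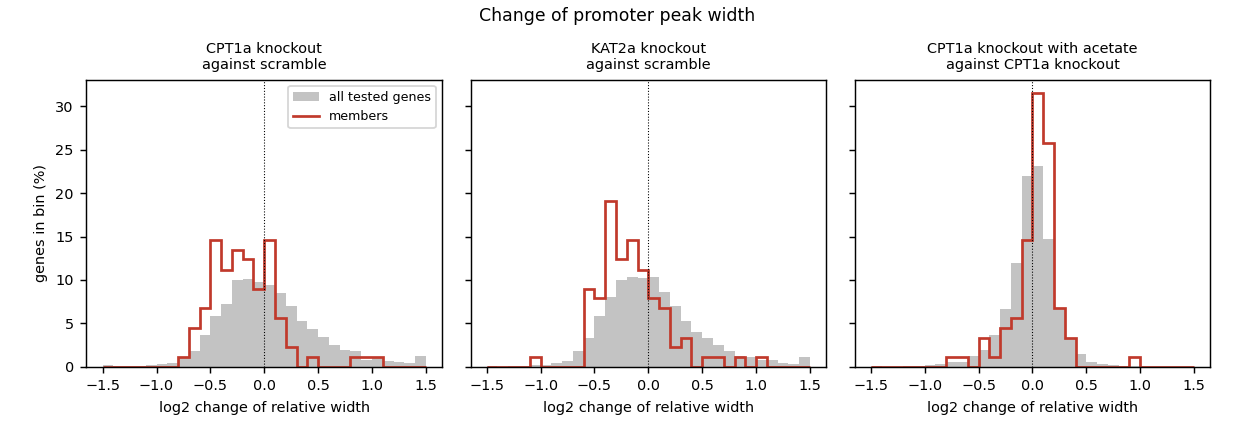
Share of genes (y axis, %) by change in relative peak width (x axis, log2, in bins of 0.1) for the 89 oxidative phosphorylation genes (red line) and all 10637 tested genes (grey), in 3 comparisons. Changes beyond 1.5 are counted in the outermost bins. The red line lies to the left of the grey area for both knockouts (medians -0.23 and -0.20, against -0.01 and -0.01 for all genes), and not for acetate (0.05 against 0.00204).

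In CPT1a knockout, 17 of 89 genes (19.1%) became narrower relative to the median promoter, where 7.22% of all genes were called narrower, and 1 (1.12%) became wider, where 7.58% of all genes were. The median change of the 89 genes was -0.23 on the log2 scale, with 65 of 89 below 0, against a median of -0.01 and 51.0% below 0 over all genes. By complex, the narrower genes were 3 of 4 in complex II, 7 of 37 in complex I, 2 of 11 in complex IV, 2 of 16 in complex V, 0 of 8 in complex III and 3 of 12 assembly factors. Without scramble replicate 3 the count fell to 4 of 89 (2.93% of all genes), without CPT1a knockout replicate 1 to 2 (1.87%) and without CPT1a knockout replicate 2 to 2 (2.02%). Without centring on the library median, 41 genes were narrower (25.1% of all genes) and 1 wider (1.49%). With all peaks of a promoter summed, 13 genes were narrower (6.78%) and 3 wider (12.7%), and 9 of the 18 width calls were kept.

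Complex II had 3 narrower genes of 4. Sdhc had relative widths of 1.27, 1.30 and 1.54 in scramble and 0.955, 0.891 and 0.660 in CPT1a knockout (log2 change -0.73 ± 0.17 SE, adjusted p = 0.0191). Sdha had 1.17, 1.47 and 1.44 against 0.892, 0.926 and 0.927 (-0.56 ± 0.13, adjusted p = 0.0155). Sdhd had 1.96, 2.03 and 1.65 against 1.24, 1.29 and 1.36 (-0.53 ± 0.125, adjusted p = 0.0176). Every knockout library lay below every scramble library for these 3 genes. Sdhb, the remaining subunit, had 1.02, 0.898 and 0.803 against 1.16, 1.04 and 0.672, with groups that overlapped. The peaks of Sdha and Sdhd covered the starts of Ccdc127 and Timm8b, which lie 108 and 98 bp away on the other strand, in all 12 libraries, while that of Sdhb covered no other coding start. The Sdha and Sdhd calls were lost without CPT1a knockout replicate 1 or 2 (adjusted p up to 0.06 and 0.0683), and the Sdhc call without scramble replicate 3 or CPT1a knockout replicate 3 (up to 0.0662).

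In complex I, the narrower genes were Ndufa10, Ndufb3, Ndufb8, Ndufb9, Ndufc1, Ndufc2 and Ndufs3, of which all but Ndufs3 are accessory subunits. Ndufb3 had relative widths of 1.72, 1.86 and 2.02 in scramble and 1.19, 1.09 and 1.4 in CPT1a knockout (-0.605 ± 0.134, adjusted p = 0.0144), and its call was lost without CPT1a knockout replicate 1 or 2 (adjusted p up to 0.0645). Ndufb8, named after its values were seen, had 1.14, 1.19 and 1.30 against 0.768, 0.811 and 0.839 (-0.58 ± 0.115, adjusted p = 0.00916), and its call alone among the narrower genes was kept without each library in turn (adjusted p 0.00859 to 0.0432). At Ndufs3, whose promoter sequence is printed with the others, the values were 1.48, 1.23 and 1.55 against 0.944, 1.03 and 1.11 (-0.46 ± 0.13, adjusted p = 0.0366). Its peak covered the start of Kbtbd4 in all 12 libraries, and its call was lost without scramble replicate 1 or 3 or CPT1a knockout replicate 1 or 2 (adjusted p up to 0.133). With all peaks of a promoter summed, or with a replicate block, it was lost as well.

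Ndufaf3, which acts together with Ndufaf4 in building complex I, was among the narrower assembly factors, with 2.15, 2.16 and 2.86 in scramble and 1.35, 1.48 and 1.69 in CPT1a knockout (-0.66 ± 0.15, adjusted p = 0.0166). In bases, that peak was 6200, 4577 and 6316 bp wide in scramble and 2774, 3074 and 2439 bp wide in CPT1a knockout. Cox6c had 1.27, 1.18 and 1.43 against 0.806, 0.842 and 0.924 (-0.59 ± 0.13, adjusted p = 0.0158). Neither gene's groups overlapped. Cox6c stood 25.0 percentile points higher in CPT1a knockout than in scramble, without a call in rank, so its narrower peak did not go with a lower place in the ranking. Over the 17 narrower genes the change in percentile ran from -24.5 (Sdhaf3) to 35 (Sdhc). The Ndufaf3 and Cox6c calls were lost without scramble replicate 3, CPT1a knockout replicate 1 or CPT1a knockout replicate 2 (adjusted p up to 0.0698 and 0.0655), and that of Cox6c also with all peaks summed (0.0524).

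**Figure D5:**
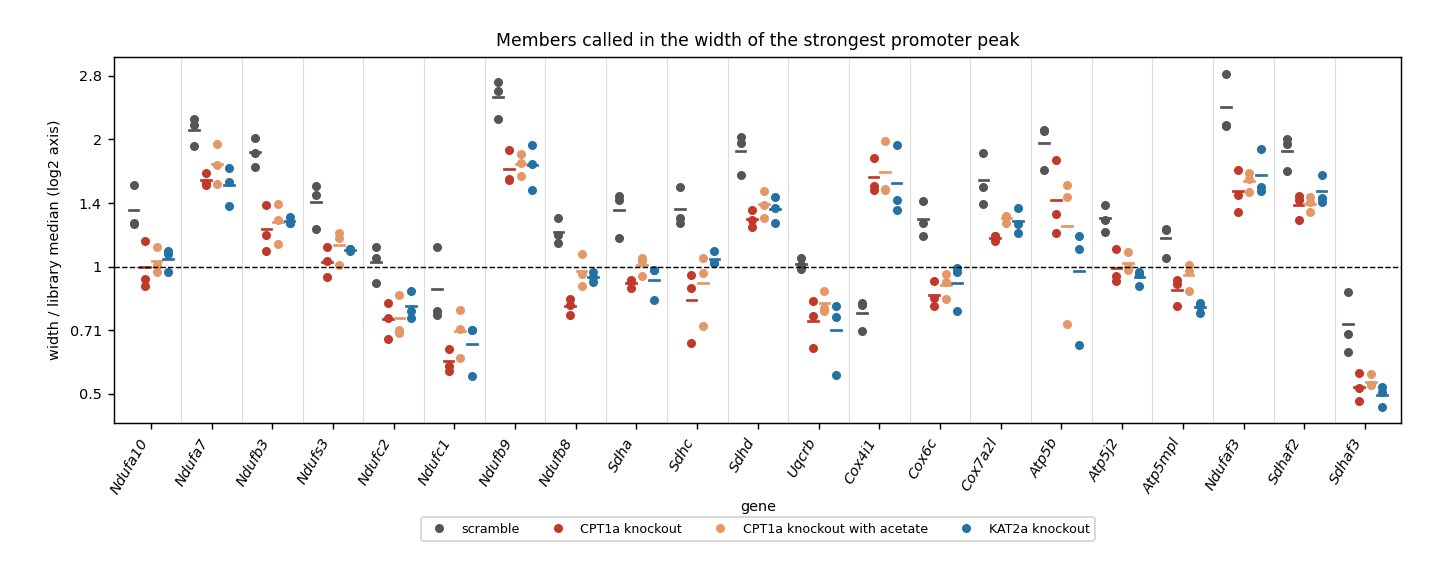
Width of the strongest promoter peak divided by the library's median promoter width (y axis, log2 scale) for the genes called in width in either knockout (x axis). Each point is a library, coloured by group, short lines are arithmetic means and the dashed line marks the median promoter. Cox4i1 is the one gene that is wider in both knockouts, and the others lie lower in the called knockout than in scramble.

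Cox4i1, the widely expressed form of a subunit needed for the assembly of complex IV, was the one gene that became wider. Its relative width was 0.702, 0.82 and 0.812 in scramble, 1.52, 1.55 and 1.81 after CPT1a loss, 1.52, 1.98 and 1.53 when acetate was added and 1.44, 1.36 and 1.94 after KAT2a loss. The log2 change was 1.06 ± 0.165 in CPT1a knockout (SE, adjusted p = 0.00262) and 1.01 ± 0.165 in KAT2a knockout (adjusted p = 0.00448), and both calls were kept without each library in turn. The promoter held 2 peaks in each scramble library and 1 in each of the other 9. The strongest peak covered another coding start, that of Emc8 or Gm27021, in 9 libraries, and Emc8 lies 187 bp away on the other strand. The share of each start in the signal cannot be told apart. With all peaks of the promoter summed, the relative widths were 1.24, 1.4 and 1.32 in scramble, 1.45, 1.46 and 1.58 in CPT1a knockout and 1.34, 1.30 and 1.70 in KAT2a knockout, and neither change was called (0.18, adjusted p = 0.281, and 0.12, adjusted p = 0.495; adjusted p over the other alternatives 0.00165 to 0.0119 and 0.00324 to 0.0227). Its percentile was not called in either knockout (adjusted p = 0.905 and 0.86).

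In KAT2a knockout, 12 of 89 genes (13.5%) were narrower relative to the median promoter, against 5.64% of all genes, and 1 of 89, Cox4i1, was wider, against 6.09% of all genes. Without centring on the library median, 1 gene was narrower (2.28% of all genes) and 1 was wider (1.05%). By complex, the narrower genes were 2 of 4 in complex II, 3 of 37 in complex I, 1 of 8 in complex III, 1 of 11 in complex IV, 3 of 16 in complex V and 2 of 12 assembly factors. Atp5b had relative widths of 1.69, 2.09 and 2.11 in scramble and 1.18, 1.10 and 0.652 in KAT2a knockout (-1.04 ± 0.30, adjusted p = 0.0424). Its promoter was split into 2 peaks in KAT2a knockout replicate 3, where its percentile was 55.1 against 95.5 and 94.5 in the other two. With all peaks summed, its relative widths were 1.45, 1.64 and 1.64 in scramble and 1.10, 1.06 and 1.31 in KAT2a knockout, a log2 change of -0.45 (adjusted p = 0.0332). Sdha had 0.832, 0.981 and 0.98 (-0.54 ± 0.13, adjusted p = 0.0221), Ndufb9 had 1.75, 1.52 and 1.94 against 2.61, 2.23 and 2.74 in scramble (-0.54 ± 0.137, adjusted p = 0.0273), and Sdhaf3, an assembly factor of complex II, had 0.506, 0.466 and 0.519 against 0.691, 0.629 and 0.869 (-0.54 ± 0.136, adjusted p = 0.0272). The groups did not overlap at any of these 4 genes. All 4 calls were lost without scramble replicate 3, KAT2a knockout replicate 1 or KAT2a knockout replicate 2 (adjusted p up to 0.123), Atp5b also without scramble replicate 2 or KAT2a knockout replicate 3 and Sdhaf3 also without KAT2a knockout replicate 3. With all peaks summed the changes of Sdha, Ndufb9 and Sdhaf3 were each -0.35, and the Sdhaf3 call was lost (adjusted p = 0.0606). The Atp5b call was lost with a replicate block. Of the 13 width calls in KAT2a knockout, 6 were kept with all peaks summed. Without scramble replicate 3 the count of narrower genes was 1 (1.65% of all genes), without KAT2a knockout replicate 1 or 2 it was 0 (at most 1.15%) and without replicate 3 it was 4 (3.11%).

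The peaks of narrower genes often covered the start of another coding gene in all 12 libraries, at 7 of 17 (41.2%) in CPT1a knockout and at 6 of 12 in KAT2a knockout, against 12 of 72 (16.7%) and 13 of 77 (16.9%) of the genes not called narrower. Their median relative width in scramble was 1.36 and 1.61, against 1.02 and 1.06. These scramble values enter the contrast itself, so they describe the called genes and test nothing.

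With acetate, compared with CPT1a knockout, 0 of 89 genes were called wider and 0 narrower under limma, as were 0% of all genes in each direction. At an unadjusted p under 0.05, 1 of the 89 genes was wider and 0 were narrower, against 228 and 269 of all genes. That gene was Ndufb8, with 0.768, 0.811 and 0.839 in CPT1a knockout and 0.958, 0.901 and 1.07 with acetate (0.275 ± 0.115, adjusted p = 1.0). The median change of the 89 genes was 0.05, with 61 of 89 above 0, against a median of 0.00204 and 5377 of 10637 above 0 over all genes.

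The surroundings of the 89 promoters are given as a description, with no test. A divergent protein-coding start lay within 1 kb at 29 of 89 (32.6%), against 17.1% of all 10637 genes. The strongest peak covered another coding gene's start in all 12 libraries at 19 of the 89 and in at least 1 library at 37. Their median GC content within 1 kb of the start was 51.0%, against 54.3%, and their median CpG observed-over-expected ratio was 0.617, against 0.646. The summit lay a median of 298 bp downstream of the start, as it did over all genes, and 64 of 89 summits (71.9%) were downstream, against 79.7%. Genes that share a peak with a neighbour are not independent of it.

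Other genes of the pathway were read from a list of 50 assembly factors, cytochromes and regulators, of which 49 had a peak in all 12 libraries and Ppargc1a had one in 5. In rank, 2 of the 49 were higher in CPT1a knockout and 5 lower (4.72% and 5.17% of all genes), and 0 and 2 in KAT2a knockout (1.57% and 2.07%). The genes given with values were chosen after those were seen. Among regulators, Yy1 stood at 87.7, 82.8 and 78.7 in scramble and at 98.1, 94.5 and 98.4 in CPT1a knockout (14.0 points, adjusted p = 0.0402), and Pprc1, a coactivator related to PGC-1, at 42.1, 38.1 and 36.3 against 87.2, 74.9 and 71.7 (39.1 points, adjusted p = 0.035). The groups of both genes did not overlap. Lyrm7, which assists the insertion of the Rieske protein into complex III, stood at 85.6, 79.2 and 81.3 against 31.7, 43.4 and 38.3 (-44.3 points, adjusted p = 0.0128). The remaining lower genes in CPT1a knockout were Coa7, Cox16, Cox20 and Tmem126b, and Cox16 and Cox20 were also lower in KAT2a knockout.

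In width, 8 of the 49 were narrower and 3 wider in CPT1a knockout (7.22% and 7.58% of all genes), and 7 and 1 in KAT2a knockout (5.64% and 6.09%). The largest narrowing was at Atpif1, the inhibitor of the ATP synthase, with log2 changes of -1.19 ± 0.15 and -1.28 ± 0.15 (± SE, adjusted p = 0.00105 and 0.000921 in CPT1a and KAT2a knockout). Surf1, an assembly factor of complex IV, changed by -1.02 ± 0.145 and -0.98 ± 0.145 (adjusted p = 0.00159 and 0.00251). Uqcc2, an assembly factor of complex III, was wider in both knockouts (0.66 ± 0.20 and 0.93 ± 0.20, adjusted p = 0.0459 and 0.0154). Its promoter held 2 peaks in each scramble library and 1 in every other library, and the change with all peaks summed was not tested. Its percentile in scramble was 3.13, 2.58 and 3.68, near the bottom of the ranking. In the acetate comparison 0 of the 49 were called in rank or in width.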

How the data were processed

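The deposited files were 12 H3K9ac peak lists, 1 per library, with 3 libraries in each of 4 groups. The 12 input samples and the Drosophila spike-in were not used here. Per the labels, the submitters' notes name FastQC, Bowtie2, SAMtools, deepTools and MACS2 with mm10 and dm6, while the study's methods name BWA and Picard, so the sources differ on the aligner. They also give different catalogue numbers for the antibody. Versions of the peak caller and read depth are not given in the sources used here. In each deposited list the authors gave a score, a fold enrichment (a ratio to background in the same library), the −log10 p and the −log10 q of every peak, and no deposited value is scaled between libraries. The fold enrichment and the peak width were used.

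A promoter was the 1 kb on each side of any start site of a gene, and an overlap of at least 1 bp counted. The strongest peak by fold enrichment gave the rank, turned into normal scores of the within-library percentile, and the width, as log2 centred on the library median. limma 3.58.1 in R 4.3.3 was fitted to all 4 groups over 10637 genes with a peak in all 12 libraries, with Benjamini-Hochberg adjustment and a threshold of 0.05, after it was tested on simulated data. The genes named were the 4 with the largest change per comparison and direction among those past the threshold, those without a peak, the highest and lowest of each complex, principal subunits and isoform pairs. In the acetate comparison no gene passed the threshold, so the genes named there are not those with the largest changes. Members and lists were chosen with earlier results of these data known. Alternatives were rank by −log10 p, the plain percentile, a GC trend removed, a window of 500 bp, lists of equal length, no centring, summed widths, a replicate block and leaving out each library. The width percentile was added after seeing the data. Single values of some genes are not reported here.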

Additional observations from a re-analysis of the deposited data

How the results depend on the processing

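The 89 promoters with a peak in all 12 libraries were 88 with a window of 500 bp and 89 with lists of equal length or with any library left out. With rank taken from −log10 p, the genes called higher and lower in CPT1a knockout were 7 and 15 (16.4% and 16.5% of all genes), and in KAT2a knockout 9 and 6 (10.8% and 12%). With the GC trend removed they were 4 and 2 in CPT1a knockout and 2 and 0 in KAT2a knockout, and on the plain percentile 1 and 2 in KAT2a knockout. Leaving out 1 library gave 1 to 1 higher and 0 to 4 lower genes in CPT1a knockout and 0 to 2 higher and 0 to 0 lower in KAT2a knockout. For width it gave 2 to 19 narrower genes in CPT1a knockout and 0 to 12 in KAT2a knockout. Without centring, 41 genes were narrower and 1 wider in CPT1a knockout, and 1 and 1 in KAT2a knockout. With summed widths 13 were narrower and 3 wider in CPT1a knockout and 11 and 1 in KAT2a knockout, and 9 of 18 and 6 of 13 width calls were kept. With the width percentile, chosen after seeing the data, 7 were narrower in KAT2a knockout. The cause of these shifts was not tested. Leaving out a library also leaves fewer samples. The share of all genes called moved with the setting. Counts given here without that share describe the calls and are not set against all genes.

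Samples with the same replicate number did not deviate together (correlations of deviations -0.0475 to 0.0578), so the numbers were not taken as pairs. With a replicate block, 2 higher and 3 lower genes were called in rank and 1 wider and 10 narrower in CPT1a knockout, and 2, 0, 1 and 9 in KAT2a knockout. These counts are likewise given without the share of all genes and are not set against it. The acetate comparison gave 0 calls of these genes under every alternative run. No call among the 89 genes reversed its direction under any alternative run. The other pathway genes were not put through the alternatives. Of the 11 rank calls 1 was kept without each library in turn, and of the 31 width calls 3 were. The lists hold no read counts, so a promoter without a peak is known only to lie under the authors' calling threshold.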
